A study of Mus musculus with 7 samples.

Results

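The genes described here repair broken or mispaired DNA or signal that DNA is damaged: the BRCA complexes and the factors of strand invasion, the enzymes that trim broken ends, the Fanconi anaemia proteins, the checkpoint kinases, mismatch and uracil repair, and end joining. Their expression was compared between splenic B cells of Eu-miR-155 transgenic mice and of wild-type mice. Of 33 genes listed, 31 had a probe set that the platform annotation assigns to that gene alone, out of 18193 such genes on the array. Each gene is represented by its brightest probe set, judged by the mean over all 7 arrays. Xrcc2 and Rbbp8 had no such probe set and are not analysed here.

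Wild-type FVB mice gave 4 arrays and transgenic FVB mice gave 3, with 1 mouse taken per array. The transgene expresses the microRNA miR-155 from the Eu (E-mu) enhancer of the antibody heavy chain locus, active in the B lineage, and B cells were taken from spleens with a magnetic isolation kit. No other allele or agent is named for either group, and the labels give no age, sex or founder line. The authors deposited GCRMA values, which are log2, so a difference of 1 is a factor of 2. Dim probe sets share a lowest value of 2.17, and 4 is taken as the upper limit of background.

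Homologous recombination copies a broken DNA end from the intact sister chromatid. The end is first trimmed to a single strand; BRCA1, PALB2 and BRCA2 then act on it, and RAD54 and RAD51AP1 help it invade the sister. Because it needs a sister chromatid, the process belongs to the S and G2 phases, and many of its genes are expressed mainly in dividing cells. Non-homologous end joining, led by the Ku proteins, works in any phase and closes the breaks of antibody gene rearrangement and class switching in B cells. UNG and MSH6 process the uracils that AID makes in antibody genes.

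The mature microRNA of the transgene's name and the promoters of 3 genes are printed first, the microRNA because it defines the transgenic group and the promoters because these genes had the largest fitted increases or passed the test. All are RefSeq sequences of build GRCm38.p6. In the microRNA, on chr16:84714143-84714165 (plus strand), capitals mark the seed, bases 2 to 8. Of the 31 genes measured, 25 had an entry in the promoter table. Each window covers the 150 bases before an annotated start, on chr6:126939588-126939737 (minus strand) for Rad51ap1, chr4:116123691-116123840 (minus strand) for Rad54l and chr15:82016219-82016368 (plus strand) for Xrcc6. Capitals mark a CCAAT box (CCAAT, or ATTGG on the other strand) or an E2F-type site.
mmu-miR-155-5p: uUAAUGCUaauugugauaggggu
Rad51ap1: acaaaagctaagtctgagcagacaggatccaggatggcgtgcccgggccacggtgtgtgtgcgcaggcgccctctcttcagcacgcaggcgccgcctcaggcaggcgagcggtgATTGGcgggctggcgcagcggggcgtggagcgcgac
Rad54l: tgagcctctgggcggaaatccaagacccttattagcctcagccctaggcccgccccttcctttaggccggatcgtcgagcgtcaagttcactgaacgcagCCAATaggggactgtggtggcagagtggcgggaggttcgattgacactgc
Xrcc6: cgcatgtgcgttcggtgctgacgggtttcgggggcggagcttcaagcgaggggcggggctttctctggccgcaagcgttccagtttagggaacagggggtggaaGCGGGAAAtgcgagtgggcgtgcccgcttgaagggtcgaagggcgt

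Some short motifs were searched on both strands of the 250 bases before and 50 after each start. They were the E2F-type site (TTTCCCGC, TTTCGCGC, TTTGCCGC or TTTGGCGC), the CCAAT box and the CHR element of late cell cycle genes (TTTGAA). No match of one motif overlapped a match of another in these genes. An E2F-type site was present in 6 of the 25 genes (24.0%), against 2.60% of the 27025 genes in the promoter table and 3.81% of the 14453 that the array's annotation also names. The 6 genes were Bard1, Brca2, Chek2, Fancg, Msh6 and Xrcc6, of which Xrcc6 passed the test of expression. A CCAAT box was present in 15 of 25 genes, against 41.1% of all genes in the table and 42.0% of those the array names. A CHR element was present in 1 of 25, Bard1, against 20.2% and 15.7%. Among 16 genes of G2 and mitosis in the same table, 11 held a CHR element and 1 an E2F-type site, and among 15 S phase genes 2 and 8 did. A match describes the letters of the window and is not a measured binding site.

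The comparison asks which repair and checkpoint transcripts differ between mice with and without the miR-155 transgene. Rad51ap1 and Xrcc6 passed as higher in the transgenic arrays, and none passed as lower. The 95% interval of the difference lay within 1 log2 in either direction for 20 of the 25 genes tested. Among the 23 that did not pass it did so for 19. Of the 31 genes, 25 were above background on at least 3 arrays and were tested; limma called 2 at an adjusted p under 0.05, 23 did not pass and 6 were too dim to test. Across all 9517 genes tested, 10.7% passed, 8.11% higher and 2.56% lower, so the number of repair genes passing was near the share of the whole array. Wild-type and transgenic values were fully separate for 7 of the 25 tested (28.0%) and for none of the 6 dim genes, all 7 higher in the transgenic arrays, where 19.5% of all tested genes were higher without overlap. At an unadjusted p under 0.05 stood 7 of the 25 (28.0%), against 30.9% of all tested genes. The median difference over the 31 genes was 0.18, and 0.13 with values under 4 set at 4, against 0.00 over all 18193 genes measured. The count of 2 rests on every wild-type array: it was 0 without any one of wild-type replicates 1 to 4 or without transgenic replicate 2, and 1 without transgenic replicate 3. It was also 0 against wild-type replicates 1 and 2 alone, and without transgenic replicate 3 and wild-type replicate 4 together.

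**Figure D1:**
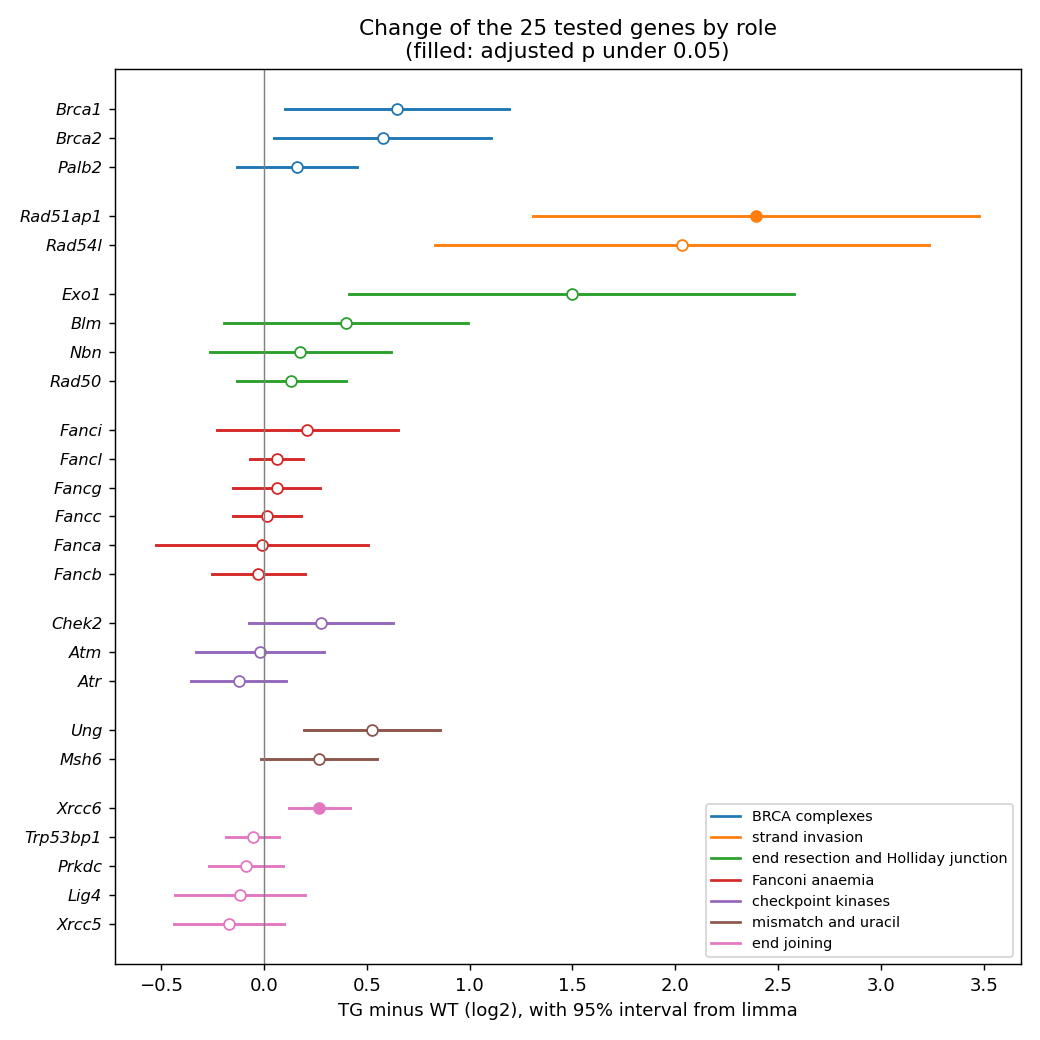
Difference between transgenic (TG) and wild-type (WT) means on the log2 scale for the 25 tested genes, by role, with the 95% interval from limma. Filled points passed an adjusted p under 0.05; Rad51ap1, Rad54l and Exo1 lie to the right at 2.39, 2.03 and 1.50, while the Fanconi genes lie between -0.03 and 0.21.

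The mature microRNA was not analysed here. Its host transcript, Mir155hg, was at 5.54 ± 0.64 in wild type (SD, n = 4) and 5.59 ± 0.39 in transgenic (SD, n = 3), and did not pass with limma (adjusted p = 0.937). Whether its probe set lies in the transgene is not given in the labels, so these values do not check the genotypes. The arrays differed in more than genotype. Xist, expressed from the inactive X chromosome of female cells, was at 13.61 or above on 5 arrays, and at 2.22 and 2.81 on replicates 3 and 4 of the wild type, so sex is unevenly spread over the groups. The B cell markers were bright on all arrays, with list means of 13.34 to 13.45 in wild type and 12.71 to 13.22 in transgenic. Several lists of markers of other blood cells had higher means on the transgenic arrays. The mean of 12 granulocyte markers was 2.78 to 3.49 in wild type, where 8 of the 12 stayed at background on all arrays, and 6.79 to 7.77 in transgenic. The mean of 10 erythroid markers was 3.36 to 3.41 against 4.37 to 6.57 (8 of 10 at background in wild type), that of 9 blood progenitor markers 3.33 to 3.55 against 4.98 to 6.35 (6 of 9), and that of 9 natural killer cell markers 2.81 to 2.88 against 4.71 to 6.51 (8 of 9). Not every marker was raised: 2 granulocyte, 3 erythroid, 3 blood progenitor and 3 natural killer cell markers stayed at background on all 7 arrays. Of those tested, 6 of 7 granulocyte, 3 of 5 erythroid, 5 of 5 blood progenitor and 4 of 5 natural killer cell markers passed as higher. Several of these met the filter through the transgenic arrays alone. Car2, the brightest erythroid marker, differed by only -0.03 (limma adjusted p = 0.937). Csf3r, Tspan33 and Prf1 did not pass either, with positive differences of 1.05, 1.62 and 0.80. The mean of 10 T cell markers was 3.11 and 3.22 on transgenic replicates 1 and 2 and 7.70 on replicate 3. The mean of 9 macrophage and monocyte markers overlapped between the groups, at 4.66 to 5.89 against 5.78 to 7.02, with 1 of the 6 tested higher, 1 lower and 4 not passing. The part of these cells in the changes below was not tested, and in such bulk samples fewer cells of a type and less RNA per cell cannot be told apart.

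Dividing-cell genes were higher as well. All 19 measured genes of G2 and mitosis passed as higher, with a median difference of 2.75, and they averaged 4.64 to 5.89 in wild type and 7.32, 7.75 and 9.13 on transgenic replicates 1 to 3. Of 20 S phase genes 9 passed as higher and 11 did not pass, with a median of 0.84. Each of these lists held 2 passing genes at background on all wild-type arrays. Those met the filter through the transgenic arrays alone, which fixed their direction. The 31 repair and checkpoint genes averaged 6.43 to 6.67 in wild type and 6.74, 6.80 and 7.25 in transgenic. Transgenic replicate 3 was the highest, as in the dividing-cell lists. It was also the highest for the erythroid, blood progenitor, T cell, natural killer cell and macrophage markers, though not for the granulocyte or B cell markers. Whether cell division accounts for the differences of the 31 genes was not tested.

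**Figure D2:**
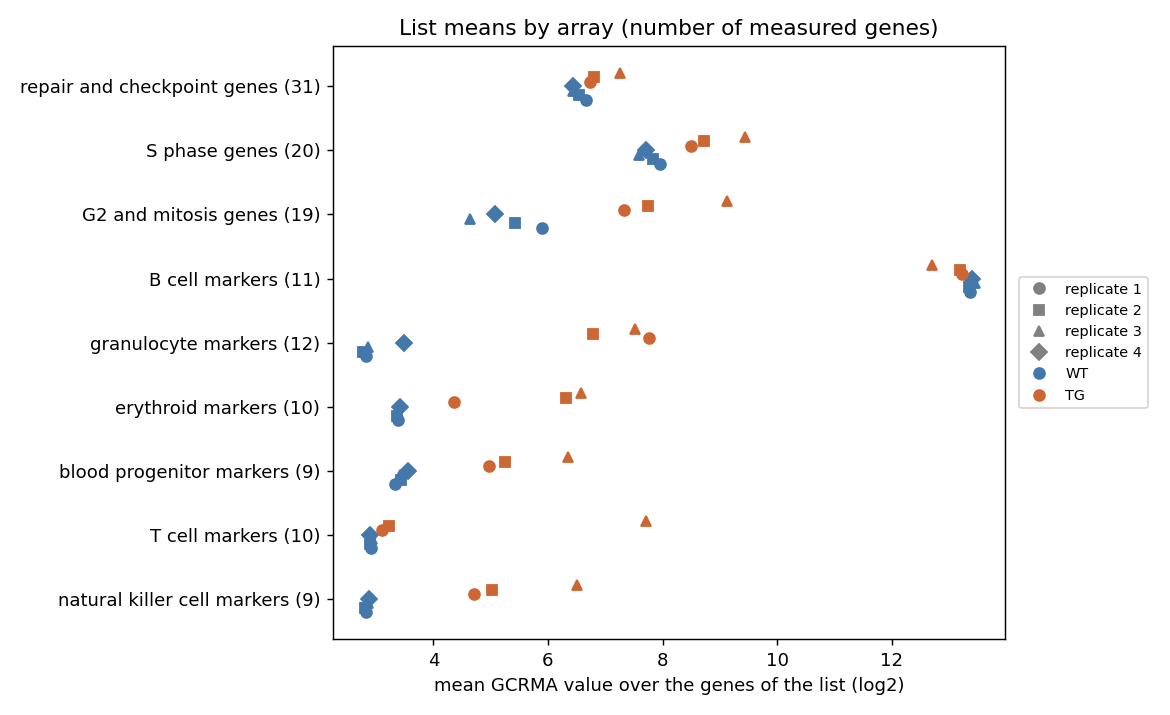
Mean GCRMA value (log2) of each gene list on each array, with the number of measured genes in brackets; colour gives the group and shape the replicate. The repair and checkpoint genes sit between 6.43 and 7.25, a narrower spread than the G2 and mitosis genes, and T cell markers are high on transgenic replicate 3 alone.

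The strand invasion genes held the largest differences. Rad51ap1, whose protein stimulates strand invasion, was at 4.49, 4.61, 3.40 and 3.72 on wild-type replicates 1 to 4 and at 5.85, 6.13 and 7.36 on transgenic replicates 1 to 3. Every transgenic array lay above every wild-type array, and wild-type replicates 3 and 4, with Xist at background, were the lowest. Rad51ap1 rose from 4.06 ± 0.59 (SD, n = 4) to 6.45 ± 0.81 (SD, n = 3), a difference of 2.39 ± 0.45 (SE, limma adjusted p = 0.0298), or 2.17 with values under 4 set at 4. A second tested probe set of Rad51ap1 was at background in all wild-type mice and at least 3.23-fold higher, or 2.04-fold without transgenic replicate 3. It met the filter through the transgenic arrays alone, so its pass adds no separate support. The remaining probe sets of the gene were too dim to test. Against wild-type replicates 1 and 2 alone the difference of the brighter probe set was 1.90 and did not pass (adjusted p = 0.173). The call was also lost without wild-type replicate 1, 2, 3 or 4 (adjusted p = 0.0614, 0.0699, 0.0717 and 0.0780) or transgenic replicate 2 (0.0922), with the direction kept. It was lost too with no filter (0.111), the replicate block (0.206) and the Xist covariate (0.0973). The same held without transgenic replicate 3 and wild-type replicate 4 together (0.0982). Rad51ap1 passed in 9 of its 19 alternatives.

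Rad54l encodes the RAD54 motor protein, which moves along the DNA being invaded. It was at 5.35, 4.59, 4.26 and 4.58 in wild type and at 5.81, 6.50 and 7.87 in transgenic. The groups did not overlap, with the lowest transgenic array 0.46 above the highest wild-type array. The difference of 2.03 ± 0.50 (SE) did not pass (adjusted p = 0.0539), and its 95% interval ran from 0.83 to 3.23. It passed in 6 of its 19 alternatives, among them quantile normalization (adjusted p = 0.0403). Rad54b, a relative of Rad54l, was at the lowest value on all wild-type arrays and at 3.43 on transgenic replicate 3. Xrcc3, another recombination gene, was at 3.91 on 6 of the 7 arrays and at 4.09 on transgenic replicate 2. Neither was tested, and neither gives a measurable fold.

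**Figure D3:**
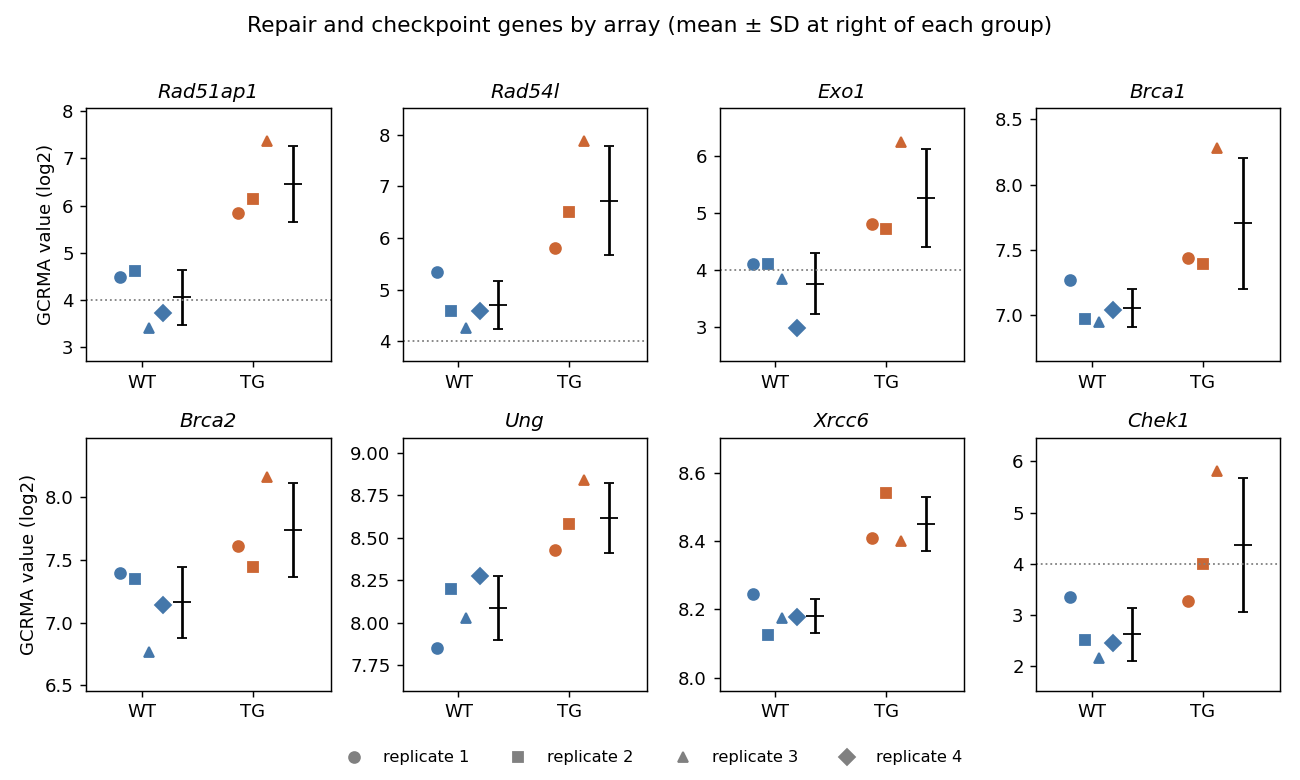
GCRMA values (log2) of 8 genes on each array, with a separate vertical range per panel; shape gives the replicate, the bar at the right of each group its mean ± SD, and the dotted line the background level of 4. Groups do not overlap for any of these genes but Chek1, and transgenic replicate 3 is the highest array in every panel except Xrcc6.

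Of the BRCA complexes, Brca1 and Brca2 separated the groups without overlap, higher in transgenic, and neither passed. Brca1, a ubiquitin ligase that promotes end resection, was at 7.27, 6.98, 6.95 and 7.04 in wild type and at 7.44, 7.39 and 8.28 in transgenic. Transgenic replicate 3 stood well above the others, and replicates 1 and 2 lay 0.12 to 0.17 above the highest wild-type array. The difference was 0.65 ± 0.23 (SE, adjusted p = 0.121). Brca2, which acts on single-stranded DNA during recombination, was at 7.40, 7.35, 6.77 and 7.14 in wild type and at 7.61, 7.45 and 8.17 in transgenic, a difference of 0.58 ± 0.22 (SE, adjusted p = 0.142). Palb2, which bridges BRCA1 and BRCA2, was at 6.24 to 6.65 and 6.50 to 6.68, overlapping ranges with a difference of 0.16 (interval -0.13 to 0.45). Bard1, the obligate partner of BRCA1, was at the lowest value of 2.17 on every array, and the helicase gene Brip1 exceeded it on transgenic replicates 1 and 3 alone, at 2.28 and 3.96; neither was above background anywhere.

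Among the genes of end resection and the dissolution of joint molecules, Exo1 had the largest difference. Exo1, an exonuclease used in resection and in mismatch repair, was at 4.11, 4.11, 3.83 and 2.99 in wild type and at 4.81, 4.72 and 6.25 in transgenic. The groups did not overlap, and the wild-type values lay at or below the background level on 2 of 4 arrays. Exo1 differed by 1.50 ± 0.45 (SE, adjusted p = 0.0866), or 1.20 with values under 4 set at 4. Blm, the helicase that unwinds joint molecules, was at 5.98 to 6.13 in wild type and at 6.13, 6.18 and 7.15 in transgenic, so its difference of 0.40 (adjusted p = 0.315) came from replicate 3; it was 0.07 without that array. Nbn and Rad50, subunits of the MRE11 complex that senses broken ends, overlapped between groups, at 7.79 to 8.26 against 7.92 to 8.55 and at 8.87 to 9.21 against 9.0 to 9.33. Their differences were 0.18 (interval -0.26 to 0.62) and 0.13 (interval -0.13 to 0.40).

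None of the 7 Fanconi anaemia genes passed, and no group of values was separate. These genes encode subunits of the core complex that ubiquitinates FANCD2 and FANCI at DNA crosslinks, and FANCD2 and FANCI themselves. Of the core complex, Fanca was at 8.43 to 9.19 in wild type and 8.42 to 8.90 in transgenic, a difference of -0.01 (interval -0.52 to 0.50). Fancb, Fancc, Fancg and Fancl, the last the ubiquitin ligase itself, differed by -0.03, 0.02, 0.06 and 0.06, with intervals that lay between -0.25 and 0.27. Fancc was at 4.08 to 4.22 on all arrays, just above background, where GCRMA compresses differences. Fanci differed by 0.21 (interval -0.23 to 0.65), and transgenic replicate 3 was its highest array at 6.64. Fancd2 had 4 probe sets, and the brightest was at 2.82 on all wild-type arrays and transgenic replicate 1, at 3.38 on replicate 2 and at 4.65 on replicate 3. That is above background on 1 array, too few to be tested.

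Of the checkpoint kinases, Atm and Atr, which sense double-strand breaks and single-stranded DNA, were near the same level in both groups. Atm was at 9.46 to 9.93 in wild type and 9.47 to 9.72 in transgenic, a difference of -0.02 (interval -0.33 to 0.29). Atr was at 9.54 to 9.85 and 9.40 to 9.65, a difference of -0.12 (interval -0.35 to 0.11), and its other tested probe sets also gave negative differences, -0.31 and -0.42, that did not pass. Chek2, the kinase downstream of ATM, was at 6.41 to 6.74 and 6.74 to 7.23, a difference of 0.28 (adjusted p = 0.250). Chek1, the kinase downstream of ATR that restrains entry into mitosis, was at background in all wild-type mice (3.36, 2.51, 2.17 and 2.46) and stood at 3.28, 4.00 and 5.81 in transgenic. Transgenic replicate 1 lay within the wild-type range. The transgenic mean was at least 1.29-fold above the background level with all 3 mice and under that level without transgenic replicate 3, and there was no test.

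**Figure D4:**
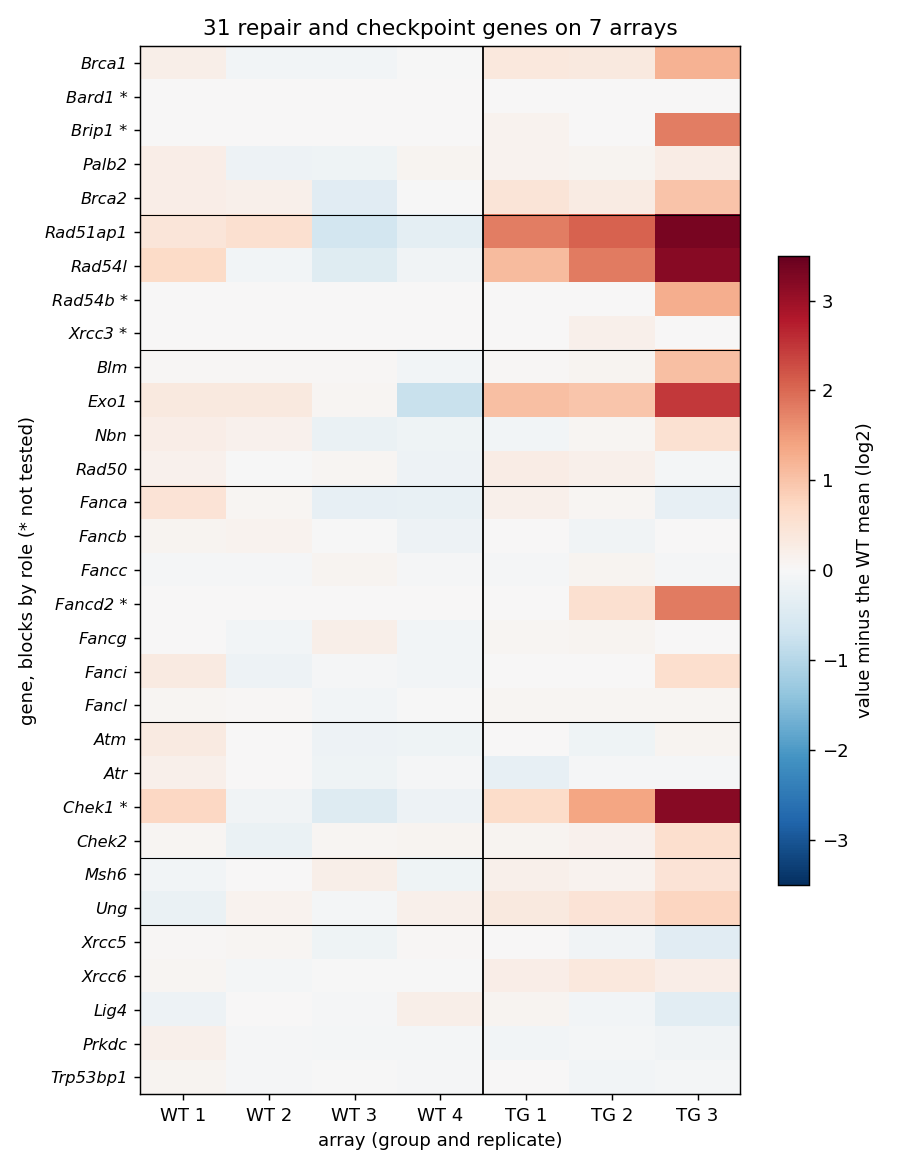
Value minus the wild-type mean (log2) for each of the 31 genes (rows, in blocks by role; a star marks genes too dim to test) on each of the 7 arrays (columns). Red cells concentrate on transgenic replicate 3 and in Rad51ap1, Rad54l, Exo1 and Chek1, and the end joining block at the bottom is pale.

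Mismatch and uracil repair were represented by Msh6 and Ung. Ung, the glycosylase that removes uracil from DNA, was at 7.85, 8.20, 8.03 and 8.28 in wild type and at 8.43, 8.58 and 8.84 in transgenic. The groups did not overlap, and unlike Rad51ap1 and Rad54l, Ung was not lower on wild-type replicates 3 and 4 (mean 8.15) than on 1 and 2 (8.02). The difference was 0.53 ± 0.14 (SE, adjusted p = 0.0618), and it passed in 4 of 20 alternatives. Msh6, a mismatch sensor, is described as a miR-155 target in human cells. It was at 9.68, 9.78, 9.98 and 9.62 in wild type and at 9.95, 9.90 and 10.24 in transgenic, overlapping ranges with a difference of 0.27 ± 0.12 (SE, adjusted p = 0.185). The interval of that difference ran from -0.01 to 0.55.

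Of the end joining genes 1 of 5 passed. Xrcc6, which encodes the Ku70 subunit that caps broken ends, was at 8.24, 8.12, 8.18 and 8.18 in wild type and at 8.41, 8.54 and 8.40 in transgenic. All transgenic arrays lay above all wild-type arrays, here with no excess on replicate 3. Xrcc6 rose by 0.27 ± 0.06 (SE, adjusted p = 0.0469), a 1.21-fold difference that is small and exceeds the spread within groups (SD 0.05 and 0.08). It passed in 5 of 20 alternatives. The call was lost without any one array (adjusted p = 0.0543 to 0.134), and in 8 other fits, among them quantile normalization (0.0610), robust eBayes (0.0521), values under 4 set at 4 (0.0502), no filter (0.0846) and the Xist covariate (0.141), while over the fits without 1 array the difference stayed between 0.22 and 0.29. Xrcc5, encoding the partner subunit Ku80, differed by -0.17 (7.46 to 7.66 against 7.20 to 7.61; interval -0.44 to 0.10) and did not pass. Prkdc, the kinase recruited by Ku, Lig4, the ligase that seals the ends, and Trp53bp1, which shields ends from resection, differed by -0.09, -0.12 and -0.06 with overlapping groups. All 3 tested probe sets of Trp53bp1 gave a negative difference, none of which passed. The groups did not overlap on its second brightest probe set, at 9.50 to 9.60 in wild type and 9.35 to 9.49 in transgenic.

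Several genes gave more than 1 reading. For 7 genes more than 1 probe set was tested, and the sign agreed within 6 of them. The exception was Fancg, at 0.06 and -0.13. The second probe set of Rad51ap1 met the filter through the transgenic arrays alone, which fixed its sign. Transgenic replicate 3 was the single highest of the 7 arrays for 17 of the 31 genes, against 1 and 3 for transgenic replicates 1 and 2. It was above every wild-type array for 18 genes and below every wild-type array for 5. On transgenic replicates 1 and 2, 9 and 15 genes were above every wild-type array. Without transgenic replicate 3 the mean differences of Rad51ap1, Rad54l and Exo1 were 1.94, 1.46 and 1.00.

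The other genes of these pathways gave counts near those of the array as a whole. Every call among them was lost without wild-type replicate 2, and likewise without transgenic replicate 2. Of 28 other recombination genes measured, 21 were tested, 2 rose and 1 fell, with a median difference of 0.09. Dna2, a nuclease and helicase of end resection, was at 6.37 to 6.50 in wild type and at 7.65, 8.25 and 9.49 in transgenic, a rise of 2.0 ± 0.40 (SE, adjusted p = 0.0329). Fignl1, an ATPase of recombination, rose by 2.14 ± 0.50 (SE, adjusted p = 0.0477), and Rmi1, a partner of BLM, fell by 0.38 (adjusted p = 0.0301). Swi5 did not pass (0.33, adjusted p = 0.0635). None of 11 other Fanconi genes passed with limma, and the smallest adjusted p were those of Fancf (0.43, 0.0755), Fancm (-0.45, 0.0849), Ube2t (0.61, 0.122), which works with the FANCL ligase, and Usp1 (0.18, 0.151), which takes ubiquitin off FANCD2.

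Of 23 other checkpoint genes measured, 21 were tested, 2 rose and 1 fell. H2ax, the histone variant phosphorylated at breaks, was at 9.64 to 9.92 in wild type and at 10.58, 10.75 and 11.24 in transgenic, a rise of 1.09 ± 0.16 (SE, adjusted p = 0.0183). Clspn, encoding the claspin adaptor that lets ATR activate CHEK1, was at 3.99 to 4.63 in wild type and at 6.28, 6.27 and 8.03 in transgenic, a rise of 2.46 ± 0.45 (SE, adjusted p = 0.0279). Mdm4, an inhibitor of p53, fell by 0.25 (adjusted p = 0.0423). Wee1, the kinase that holds CDK1 inactive and a described miR-155 target, was at 5.84 to 6.28 in wild type and at 6.52, 7.23 and 7.87 in transgenic. Its groups did not overlap, and its difference of 1.18 ± 0.30 (SE) did not pass (adjusted p = 0.0588).

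Of 20 other mismatch and base excision genes, all tested, 2 rose and 0 fell. Lig1, the replicative DNA ligase, rose by 1.15 ± 0.25 (SE, adjusted p = 0.0390) and Pcna, the sliding clamp, by 0.52 ± 0.11 (SE, adjusted p = 0.0411). Neil3, a glycosylase, was at background in all wild-type mice and at 4.10, 4.82 and 6.31 in transgenic, and did not pass (adjusted p = 0.0919), and the flap nuclease gene Fen1 differed by 0.47 (adjusted p = 0.0939). Of 13 other end joining genes 10 were tested and none passed with limma; the smallest adjusted p was 0.211 for the polymerase gene Polm (-0.25), followed by Tdp1 (0.24), Tdp2 (-0.10) and Poll (-0.29).

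Known p53 targets moved both ways. Of 25 measured, 19 were tested, 2 rose and 1 fell, with a median difference of 0.17, or 0.06 with values under 4 set at 4. Ckap2, which is also a mitotic spindle gene, was at background in all wild-type mice and was at least 2.45-fold higher (adjusted p = 0.0163). That bound was 1.695-fold without transgenic replicate 3. Ckap2 met the filter through the transgenic arrays alone, which fixed its direction. Zmat3, encoding an RNA-binding protein, rose by 0.48 (adjusted p = 0.0442), and Ddb2, which recognises ultraviolet damage, fell by 0.43 (adjusted p = 0.0323). Ccng1 did not pass (0.25, adjusted p = 0.0594). Together the 6 lists outside the 31 genes held 11 passing genes among 101 tested, 10.9%, beside the 10.7% of all genes. None of these calls held without wild-type replicate 2 or transgenic replicate 2, against wild-type replicates 1 and 2 alone, with no filter, with Xist as a covariate or in the blocked fit by replicate number. Without wild-type replicate 1, 3 genes passed, and 1 each without replicate 3 or 4. The count was 13 without transgenic replicate 1 and 10 without transgenic replicate 3.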

How the data were processed

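The deposited table holds log2 values that the authors made with GCRMA (version not given), per the submitters' processing notes; the log2 scale was read from the value range. GCRMA corrects background from probe sequence and quantile normalizes the arrays, and many dim probe sets end at one lowest value, which compresses differences of dim genes. Equal values, to 4 decimals, also stood on different arrays for 10 of the 25 tested genes, some of them bright. Prkdc was at 9.1994 on wild-type replicates 3 and 4 and transgenic replicate 2. What such ties do to the intervals was not tested. Of 45101 probe sets, 64 controls were left out. Probe sets above 4 on at least 3 of 7 arrays (20994) were fitted with limma 3.58.1 in R 4.3.3 (lmFit, eBayes with intensity trend, two-sided, Benjamini-Hochberg over all tested). The 33 genes, the other lists and the tests were chosen with earlier results of these data known. The rule for names was every listed gene, up to 4 genes of smallest adjusted p per other pathway list, and Wee1, a described miR-155 target; some genes named in the plan are not reported here. On simulated arrays of 9517 genes, 76.0% of changes of 1 and 95.0% of changes of 2 (log2) were called, with 9 false calls. The simulation drew independent normal noise and adjusted over these 9517 genes, not over the 20994 probe sets of the reported test. Its rates are averages over genes and not the rate of any 1 gene. Rad54l, with a difference of 2.03, did not pass. The arrays' number limits precision. Replicates are taken as separate mice, and same-numbered arrays of the groups did not deviate together (r = -0.04, -0.14 and -0.29). Alternatives changed the filter, normalization, floor, variance model, array weights, probe set choice, Xist term, replicate block, threshold and arrays included.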

Additional observations from a re-analysis of the deposited data

Results flagged for a closer look

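Among the 26 repair and checkpoint genes whose 4 wild-type values differ at all, 5 had a wild-type array far from the other 3, measured as the gap to the nearest value over the whole range and set against Dixon's 95% critical value. At that value chance gives about 1 in 20 such groups where values are independent and normally distributed, which was not checked for these genes. That rate does not apply to tied values. Fancc had equal values on wild-type replicates 2 and 4, and Prkdc on 3 and 4. Blm was at 5.98 on wild-type replicate 4, beside 6.12 to 6.13 on the others. Fancc was at 4.21 on wild-type replicate 3, beside 4.08 on the others, a gene just above background. Chek2 was at 6.41 on wild-type replicate 2, beside 6.72 to 6.74. Xrcc5 was at 7.46 on wild-type replicate 3, beside 7.65 to 7.66. Prkdc was at 9.44 on wild-type replicate 1, beside 9.20 to 9.22. None of the 5 genes passed the comparison of the groups.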

How the results depend on the processing

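Over 20 alternatives besides the threshold, the sign of the difference was kept in all for 16 of 25 tested genes. The number of repair and checkpoint genes passing was 2 in the reported limma fit. It was 0 with no filter (7 at an unadjusted p under 0.05), with the replicate block without wild-type replicate 4 (4 unadjusted), with Xist as a covariate (4), without wild-type replicates 3 and 4 (3), and without transgenic replicate 3 and wild-type replicate 4 (6). It was 1 with values under 4 set at 4, 4 with arrays centred on the median, 6 with array weights, 4 with averaged probe sets, 0 at an adjusted p under 0.01 and 5 at 0.1. Leaving out 1 array gave 0 to 2. Over all genes, 1016 became 116 with no filter, 2763 with array weights, 3 with the replicate block, 156 with the Xist covariate, 12 without wild-type replicates 3 and 4, 408 without transgenic replicate 3 and wild-type replicate 4, and 87 to 1074 with 1 array left out. For the 6 other pathway lists, 11 became 0 with no filter, the replicate block, the Xist covariate or without wild-type replicates 3 and 4 (33, 23, 23 and 20 unadjusted), 34 with array weights, 6 without transgenic replicate 3 and wild-type replicate 4, and 0 to 13 with 1 array left out. The cause of these moves was not tested; the fits without arrays have fewer samples. The labels do not say whether the replicate numbers pair the mice, so whether the block suits these data is not known. Signs changed 24 times, in 9 genes that never passed. Centring on the median turned Fanca (0.047), Fancb (0.029), Atm (0.039) and Trp53bp1 (0.0017). Leaving out transgenic replicate 3 and wild-type replicate 4 turned Nbn (-0.058), Fanca (0.046), Fanci (-0.0064) and Lig4 (0.071). Nbn was -0.022 with the Xist covariate and -0.014 without wild-type replicates 3 and 4, Fanca 0.087 with array weights, Fancc -0.28 with quantile normalization and Fancg -0.034 with averaged probe sets. With 1 array left out Nbn ran from -0.0034 to 0.31, Fanca from -0.11 to 0.15, Fancb from -0.090 to 0.022, Fancc from -0.028 to 0.051, Atm from -0.076 to 0.082 and Lig4 from -0.22 to 0.0054.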
